A study of Sus scrofa with 12 samples.

Results

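Fatty acid uptake and oxidation families were followed here as 57 genes of the 12367 that the array annotation names with a single gene. They were chosen by symbol alone: every probe set whose symbol starts with ACSL, ACSM, ACSS, ACAD, ACAC, ACOT, ACOX, CPT1, CPT2, HADH, FABP, PPAR, ANGPTL, ELOVL, HACD or PLIN was taken. This gave 60 of 27558 probe sets, and where a gene had several probe sets the one with the highest mean signal stood for it. By role they were 12 genes of oxidation (carnitine shuttle, acyl-CoA dehydrogenases, HADH enzymes and peroxisomal oxidases), 10 of fatty acid activation, 11 of binding and release (FABP and thioesterases), 10 of regulation (PPAR and ANGPTL) and 14 of synthesis and storage (ACAC, ELOVL, HACD and PLIN). Another 20 family members that RefSeq lists for the pig, among them CPT1B, ACADVL, HADHB, FABP3, FABP4 and PPARGC1A, were not analysed here. The only probe set listed for FABP3 also lists a second locus and was therefore left out.

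The tissue was left ventricular muscle of female pigs labelled as 13 months old. Paced pigs had atrioventricular block made with an ablation catheter and a pacemaker in VDD mode, in which ventricular pacing follows sensed atrial beats. Control pigs had a sham procedure, and the labels describe leads on the right ventricular septum and the right atrial appendage in all pigs. After 6 months the left ventricular free wall and the septum were sampled. The 12 arrays formed 4 groups of 3: free wall paced, free wall control, septum paced and septum control. The series enrolled 12 pigs, 6 per treatment. Neither the animal behind each array nor any pooling of RNA is given. The p-values therefore measure only the spread between these arrays.

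The adult heart draws most of its energy from long-chain fatty acids. Fatty acids enter the myocyte, are held by binding proteins (FABP), and are joined to coenzyme A by synthetases (ACSL, ACSM, ACSS). The carnitine shuttle (CPT1 and CPT2) carries them into mitochondria, where acyl-CoA dehydrogenases (ACAD) and the HADH enzymes shorten them. Peroxisomes run a parallel path that begins with acyl-CoA oxidases (ACOX). Acetyl-CoA carboxylases (ACACA, ACACB) make malonyl-CoA, which is the building block of new fatty acids and an inhibitor of CPT1. ELOVL and HACD enzymes lengthen fatty acids, and perilipins (PLIN) coat the droplets in which triglyceride is stored. PPAR receptors, with coactivators such as PPARGC1B, switch on many of these genes, and ANGPTL4 is a PPAR target that inhibits lipoprotein lipase.

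The values are robust multi-array average (RMA) signals on the log2 scale, so a difference of 1 is a 2-fold change. Array medians lay between 4.305 and 4.45. Heart muscle markers were bright on all arrays: the 10 cardiomyocyte markers measured, such as MYH7 (mean 12.52), MYL2 (12.45) and RYR2 (11.32), summed to 15.04 to 15.19 on the log2 scale per array. Free wall paced array 2 stood apart, at -45.3 on the first principal component against -19.2 to 22.3 for the others, with a limma array weight of 0.24 against 0.63 to 1.68. Array signals carry no read depth. Precision here is limited by the small number of arrays, and it differs between genes and between arrays. In whole tissue, fewer cells of a type and less RNA per cell cannot be told apart.

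Of the 57 genes, 49 passed the filter on low signal (a mean over 12 arrays above 3.0, which leaves out the lowest 25% of probe sets) and were tested. The 8 that did not were FABP1, FABP2 and FABP7, the binding proteins of liver, intestine and brain, and ACOT12, ANGPTL5, ELOVL3, ELOVL4 and HACD4. None of these 8 exceeded 3.27 on any array (ELOVL3 in free wall paced array 2). Signals of different probe sets depend on their probes, so levels are given per gene and are not ranked between genes.

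**Figure D1:**
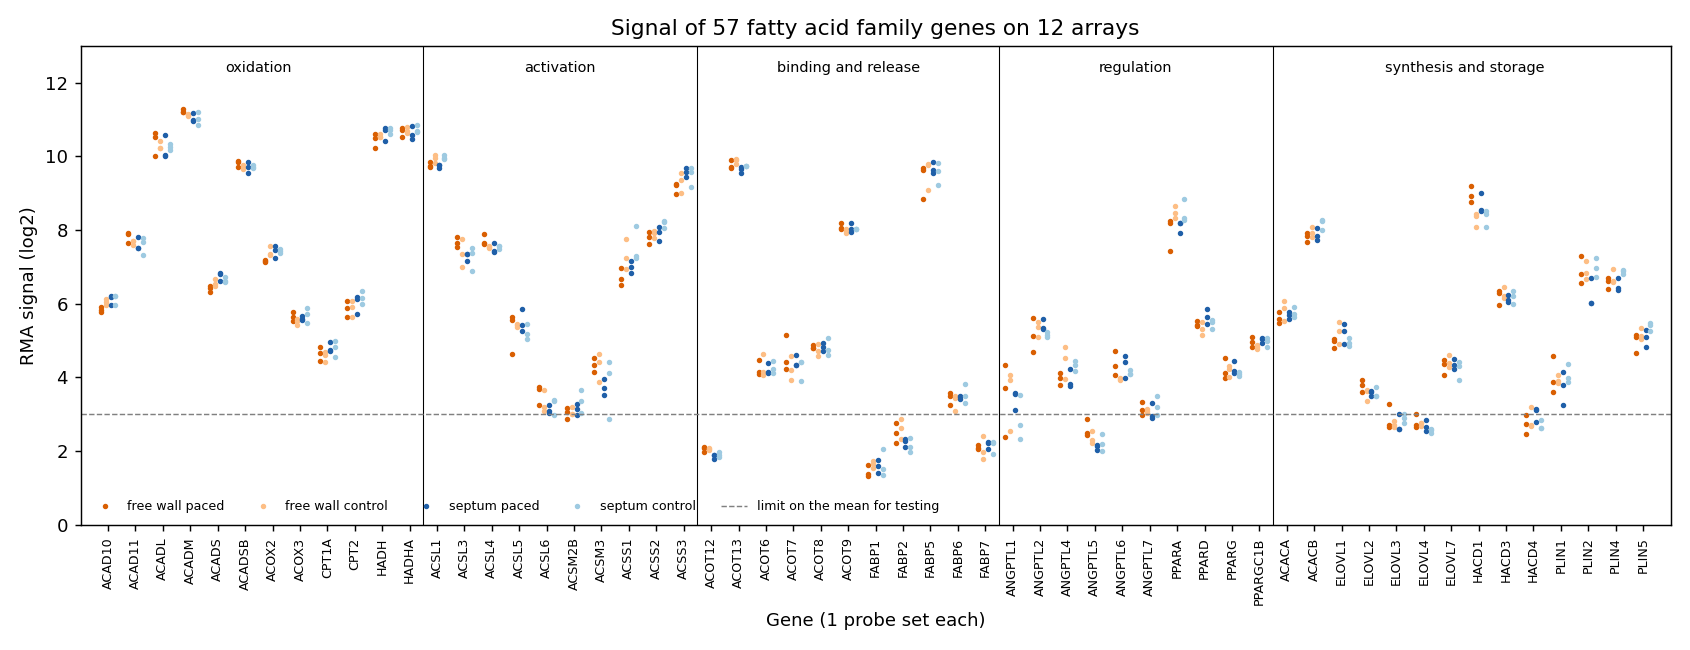
RMA signal (log2, vertical axis) of each of the 57 genes on the 12 arrays, with genes grouped by role along the horizontal axis and points coloured by group. The dashed line at 3.0 is the limit on the mean for testing, and the 8 untested genes lie around or below it. For the 12 oxidation genes the whole range over the arrays was at most 0.70.

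Among the oxidation genes the distance between the lowest and the highest of the 12 arrays ran from 0.32 (ACADSB) to 0.70 (CPT2), with a median of 0.48 over the 12 genes. The median distance was 0.60 for binding and release, where ACOT9 had the shortest of all at 0.26. It was 0.68 for synthesis and storage, 0.79 for activation and 0.83 for regulation, and it reached 2.01 for ANGPTL1. The 8 untested genes are counted in these medians, and none of them is an oxidation gene. ACADM, the medium-chain acyl-CoA dehydrogenase, lay between 10.86 and 11.28, and HADHA, the long-chain subunit of the mitochondrial trifunctional protein, between 10.47 and 10.86. HADH, the short-chain 3-hydroxyacyl-CoA dehydrogenase, lay between 10.23 and 10.78.

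The first comparison asked how these genes differed between paced and control pigs in the free wall. None of the 49 tested genes passed (0 higher and 0 lower at a limma Benjamini-Hochberg adjusted p under 0.05 over all 20666 probe sets tested, where 0.00484% of probe sets passed). At an unadjusted p under 0.05 there were 6 of 49 genes (12.2%), against 4.56% of all probe sets. Paced and control arrays did not overlap for 8 genes (16.3%), against 8.16% of all probe sets. Of the 49 genes 23 were above 0, against 49.9% of all probe sets. Oxidation genes split evenly, with 6 above 0 and 6 below, and their median log2 difference was 0.04. Synthesis and storage genes had 4 above and 7 below, with a median of -0.13, and the median of all tested probe sets was 0. The 95% intervals of the 12 oxidation genes lay within -0.51 and 0.50 on the log2 scale.

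HACD1, a dehydratase that lengthens very long-chain fatty acids and is most active in muscle, had the smallest p in the free wall. Its signal was 9.19, 8.92 and 8.77 in the paced arrays, against 8.09, 8.38 and 8.43 in the control arrays. Every paced array was above every control array, and the averages were 8.96 ± 0.21 paced and 8.30 ± 0.18 control (SD, n = 3 each). The difference was 0.66 (SE 0.18), or 1.58-fold, with a limma adjusted p of 0.945. HACD3, another dehydratase of the family, differed by -0.08 (SE 0.14).

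PPARA, the receptor that drives oxidation genes in heart and liver, read 8.18, 7.42 and 8.24 in the paced free wall and 8.65, 8.32 and 8.46 in the control free wall. All paced arrays were below all control arrays, and array 2, the one that stood apart, was the lowest by far. The difference was -0.53 (SE 0.22, limma adjusted p 0.998) and was -0.27 without that array. PPARD and PPARG, the other receptors of the family, differed by 0.13 (SE 0.14) and 0.04 (SE 0.15), and the coactivator PPARGC1B by 0.15 (SE 0.11).

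ANGPTL4 read 3.99, 4.13 and 3.79 in the paced free wall and 3.95, 4.82 and 4.54 in the control free wall. The groups overlapped through control array 1. The difference was -0.47 (SE 0.21, limma adjusted p 0.998), and it was -0.28 without control array 2 and -0.71 without control array 1. ANGPTL6, a secreted protein of the same family, read 4.06, 4.71 and 4.30 in paced and 3.95, 3.99 and 3.93 in control arrays. These groups did not overlap, and the difference of 0.40 (SE 0.18) was 0.22 without paced array 2.

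ACSS1, the mitochondrial acetyl-CoA synthetase that burns acetate, read 6.51, 6.96 and 6.68 in the paced free wall, against 7.77, 7.25 and 6.95 in the control free wall. A single paced array overlapped the lowest control array. The difference was -0.61 (SE 0.25, limma adjusted p 0.998), and it was -0.38 without control array 1. ACSL1, the main long-chain acyl-CoA synthetase of heart, differed by -0.18 (SE 0.10). ACSL4, a synthetase that prefers arachidonic acid, read 7.89, 7.63 and 7.64 paced and 7.52, 7.53 and 7.57 control. These groups did not overlap, with a difference of 0.18 (SE 0.11).

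Among oxidation genes the largest estimate in the free wall belonged to ACOX2, the peroxisomal oxidase of branched chains and bile acid precursors. It read 7.14, 7.16 and 7.18 in paced arrays and 7.58, 7.34 and 7.33 in control arrays, with no overlap. The difference was -0.26 (SE 0.12, limma adjusted p 0.998) and -0.18 without control array 1. ACAD10, a dehydrogenase of the same fold whose physiological substrates are less clear, read 5.91, 5.77 and 5.82 in paced and 6.04, 6.14 and 5.97 in control arrays. It did not overlap either, at -0.22 (SE 0.12). ACADM read 11.28, 11.20 and 11.21 in paced against 11.13, 11.15 and 11.10 in control arrays, a difference of 0.10 (SE 0.12) without overlap.

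The remaining oxidation genes lay near 0 in the free wall. CPT1A, the liver-type gate of the carnitine shuttle, differed by 0.08 (SE 0.15), and CPT2, its partner at the inner membrane, by -0.01 (SE 0.17). HADHA differed by -0.03 (SE 0.12), HADH by -0.11 (SE 0.13), ACADL by 0.09 (SE 0.19) and the short-chain dehydrogenase ACADS by -0.14 (SE 0.11). For HADHA the 95% interval ran from -0.30 to 0.24, so a 2-fold change in either direction lay outside it.

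**Figure D2:**
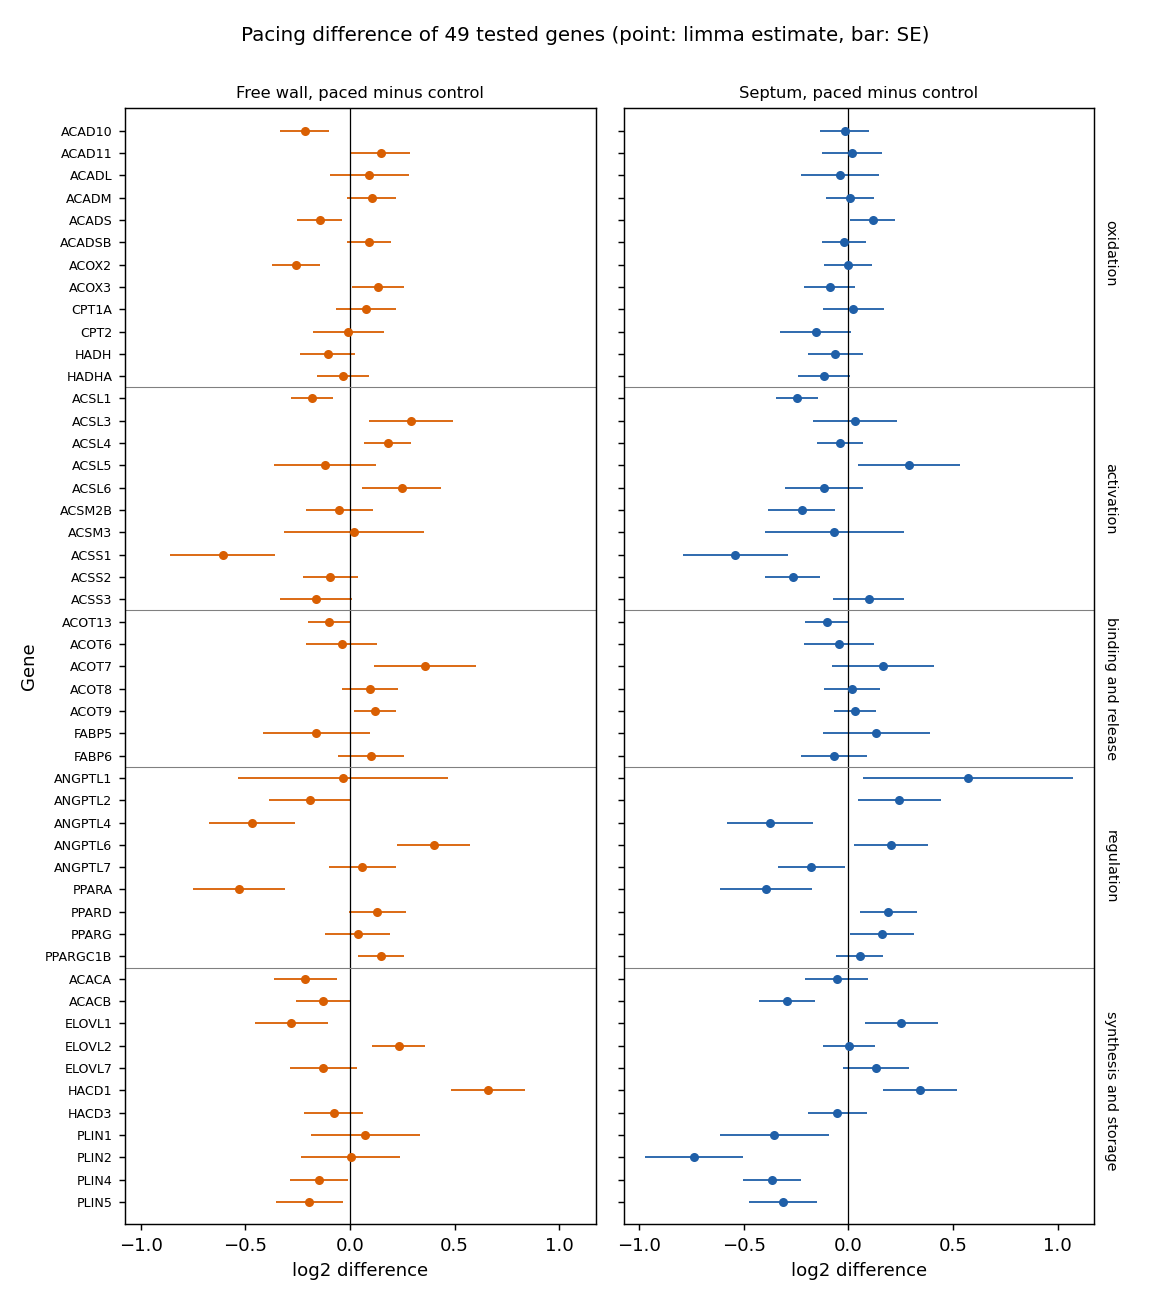
Log2 difference between paced and control arrays (horizontal axis, point with SE bar from limma) for each of the 49 tested genes, in the free wall (left panel) and in the septum (right panel), with lines between the roles. HACD1 lies at 0.66 in the free wall and PLIN2 at -0.74 in the septum, and no gene passed the adjusted threshold.

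In the septum the smallest p-values belonged to lipid droplet coats, PLIN2 and PLIN4. Of 49 genes, 0 passed the limma threshold, where 0.00968% of all probe sets did. At an unadjusted p under 0.05 there were 4 genes (8.16%), against 4.65% of probe sets, and all 4 were lower with pacing, against 2.32% of probe sets on that side. Groups did not overlap for 7 genes (14.3%), against 10.5% of probe sets. Of the 49 genes 21 were above 0, against 49.1% of all probe sets. Oxidation genes had 4 above 0 and 7 below, with a median of -0.02, and synthesis and storage genes 4 above and 7 below, with a median of -0.06. The median of all tested probe sets was -0.003. No oxidation gene had groups that did not overlap in the septum.

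PLIN2, the droplet coat found in most tissues and a common gauge of stored lipid, had the smallest p in the septum. It read 6.03, 6.70 and 6.01 in the paced septum, against 6.74, 7.24 and 6.97 in the control septum. Every paced array lay below every control array, although paced array 2 came within 0.04 of the lowest control array. The averages were 6.25 ± 0.39 paced and 6.98 ± 0.25 control (SD, n = 3 each), a difference of -0.74 (SE 0.23), or 1.67-fold lower, with a limma adjusted p of 0.989. In the free wall PLIN2 read 7.29, 6.80 and 6.57 paced and 6.66, 7.16 and 6.83 control, and those groups overlapped with a difference of 0.003 (SE 0.23).

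PLIN4, a perilipin of muscle and fat, read 6.38, 6.71 and 6.43 in the paced septum and 6.81, 6.92 and 6.88 in the control septum. The groups did not overlap, and the difference was -0.36 (SE 0.14, limma adjusted p 0.992). PLIN5, which tethers droplets to mitochondria in oxidative muscle, read 4.82, 5.30 and 5.11 paced and 5.43, 5.26 and 5.48 control. These groups overlapped, at -0.31 (SE 0.16). PLIN4 and PLIN5 are neighbouring genes in RefSeq's Sscrofa11.1 assembly. PLIN1, the droplet coat of adipocytes, was dim (mean 3.94) and differed by -0.35 (SE 0.26). All 4 perilipins measured had estimates below 0 in the septum, and none passed. Without septum paced array 1, PLIN1 was at -0.12 and PLIN5 at -0.185.

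Other genes of synthesis gave mixed values in the septum. ACACB, the carboxylase isoform at the mitochondrial surface of heart and muscle, read 8.07, 7.74 and 7.83 in paced and 8.27, 8.0 and 8.25 in control arrays, with an overlap through paced array 1. It differed by -0.29 (SE 0.13), and ACACA, the isoform of fat synthesis, by -0.06 (SE 0.15). HACD1 read 8.54, 9.0 and 8.51 paced and 8.08, 8.44 and 8.51 control. The lowest paced value equalled the highest control value, and the difference was 0.34 (SE 0.18), or 0.18 without paced array 2. ELOVL1, an elongase of saturated very long chains, differed by 0.25 (SE 0.17) in the septum and by -0.28 (SE 0.17) in the free wall. Leaving out paced array 1 brought the septum value to 0.13, and leaving out control array 2 brought the free wall value to -0.14.

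ACSL1 read 9.68, 9.76 and 9.76 in the paced septum, against 10.05, 9.93 and 9.96 in the control septum. The groups did not overlap, and the difference was -0.25 (SE 0.10, limma adjusted p 0.992). ACSS1 read 7.16, 6.84 and 7.01 paced and 8.10, 7.30 and 7.23 control, also with no overlap, at -0.54 (SE 0.25) and at -0.26 without control array 1. PPARA read 8.19, 8.18 and 7.91 paced and 8.84, 8.28 and 8.34 control, again with no overlap, at -0.39 (SE 0.22) and at -0.22 without control array 1. ANGPTL4 differed by -0.37 (SE 0.21).

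**Figure D3:**
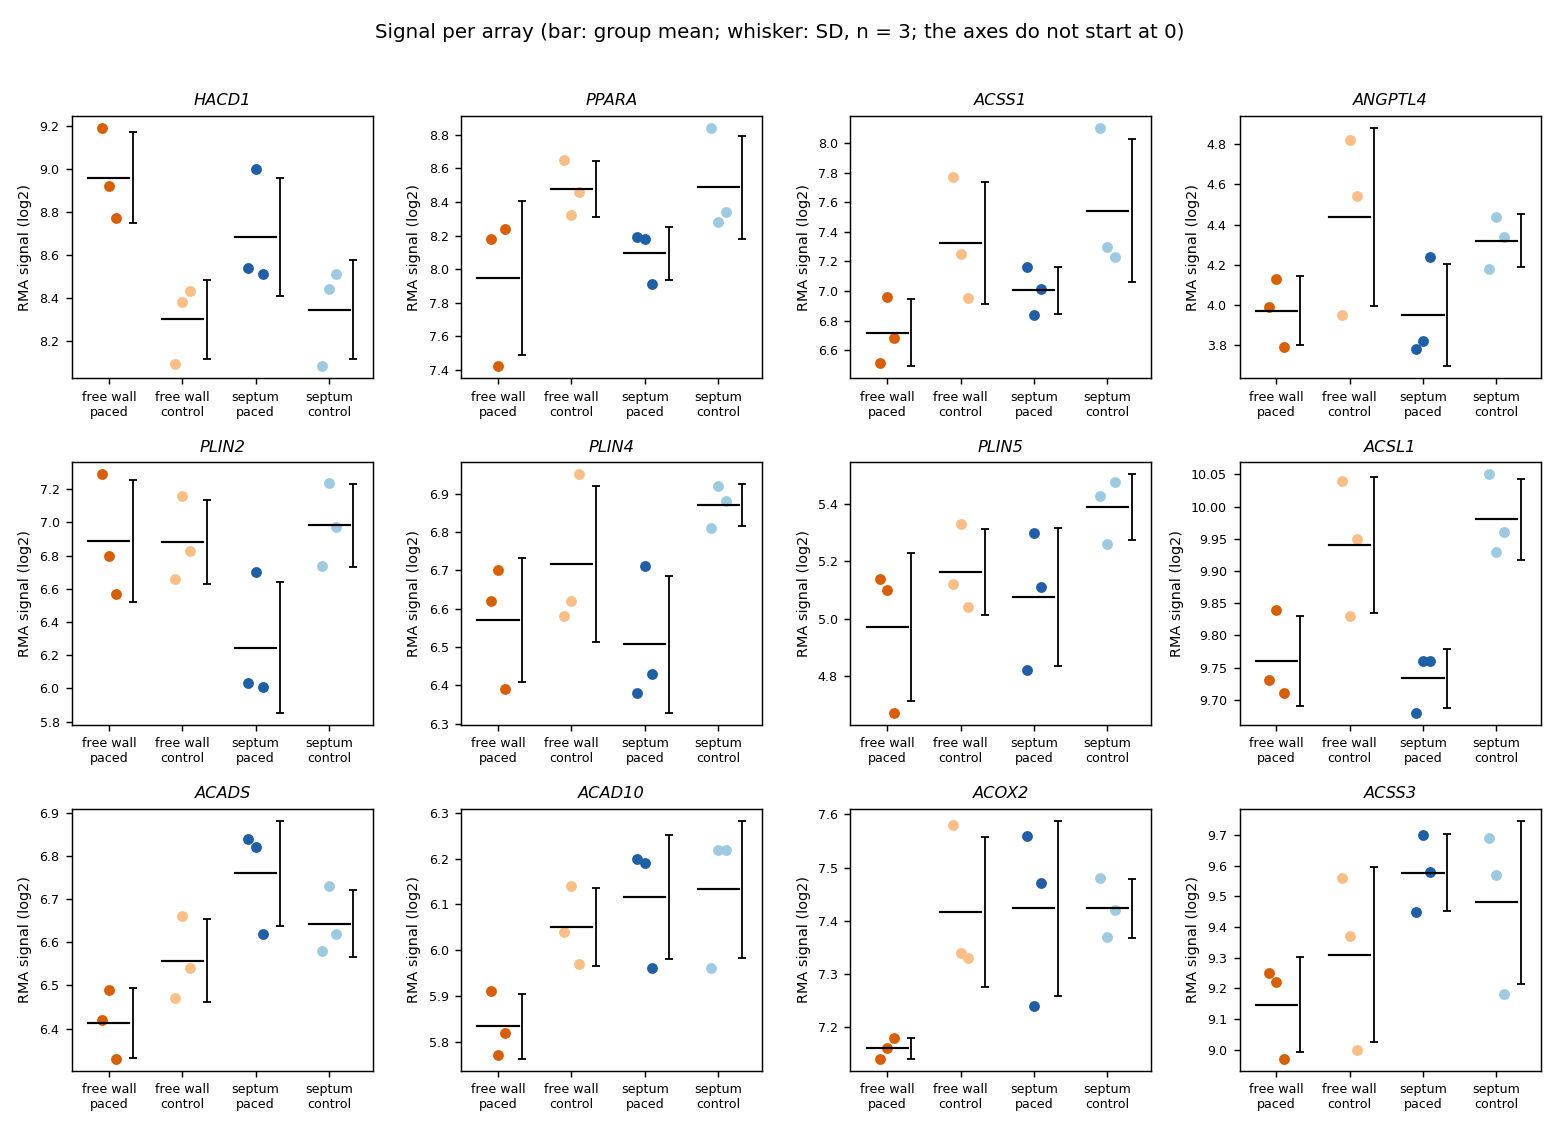
RMA signal (log2, vertical axes that do not start at 0) of 12 genes on each of the 12 arrays, by group along the horizontal axis, with the group mean as a bar and the SD of 3 arrays as a whisker. PPARA lies lower in paced than in control arrays in both regions, and PLIN2 lies lower in the paced septum than in the control septum but overlaps in the free wall.

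For a single value over the heart, each septum array was averaged with the like-numbered free wall array of its treatment, which left 3 paced and 3 control values. Like-numbered arrays deviated together in control pigs but not measurably in paced pigs, and whether they share an animal is not given. The counts below therefore rest on the averaging. Again 0 of 49 genes passed (0.00484% of all probe sets passed). At an unadjusted p under 0.05 there were 7 genes (14.3%), against 5.55% of probe sets, and groups did not overlap for 10 genes (20.4%), against 10.5%. With the 12 arrays not averaged, 10 genes were at an unadjusted p under 0.05 and the smallest limma adjusted p of a member was 0.357. HACD1 differed by 0.50 (SE 0.13, limma adjusted p 0.791) and ANGPTL6 by 0.30 (SE 0.09). On the lower side stood PPARA at -0.46 (SE 0.15), ANGPTL4 at -0.42 (SE 0.14), ACSS1 at -0.57 (SE 0.20), PLIN5 at -0.25 (SE 0.10) and ACSL1 at -0.21 (SE 0.09). Their limma adjusted p-values, ANGPTL6 included, lay between 0.868 and 0.891. Leaving out the control arrays numbered 1 brought ACSS1 to -0.32.

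Of the 49 genes 23 were above 0 with the regions averaged, against 48.9% of all probe sets. Oxidation genes had a median of 0.004, and the highest and lowest bounds of their 95% intervals were 0.38 and -0.35. Synthesis and storage genes had a median of -0.14, with 3 above 0 and 8 below, while the median of all tested probe sets was -0.002. A gene-by-gene view of the class shows the spread behind that median, from PLIN2 at -0.37 (SE 0.16) to HACD1 at 0.50. Without the paced arrays numbered 3, PLIN2 was at -0.23. No test was made of one class against the other.

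**Figure D4:**
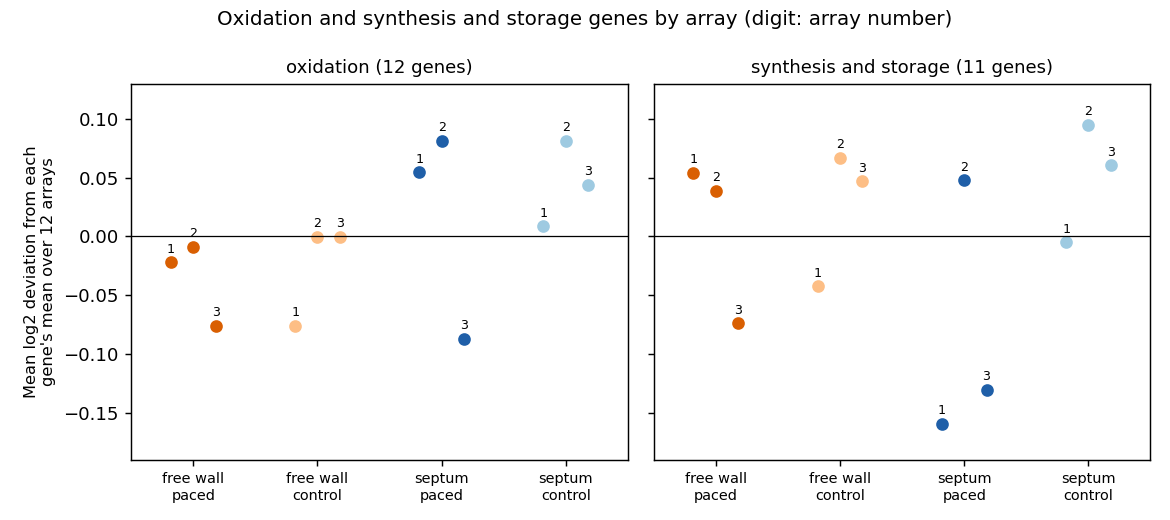
Mean deviation of each array from the genes' own means over 12 arrays (log2, vertical axis) for the 12 tested oxidation genes (left) and the 11 tested synthesis and storage genes (right), by group, with the array number beside each point. Septum paced arrays 1 and 3 lie at -0.16 and -0.13 for synthesis and storage, and array 2 at 0.05.

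Per array, the averaged deviation of oxidation genes was -0.02, -0.01 and -0.08 in the paced free wall and -0.08, 0.00 and 0.00 in the control free wall. In the septum it was 0.05, 0.08 and -0.09 paced and 0.01, 0.08 and 0.04 control, so the groups overlapped in both regions. Synthesis and storage genes stood at -0.16, 0.05 and -0.13 in the paced septum and at -0.005, 0.10 and 0.06 in the control septum. Here too the groups overlapped, through paced array 2.

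The regions themselves were compared next, septum against free wall. In paced pigs 0 of 49 genes passed, as did 0% of all probe sets by limma. At an unadjusted p under 0.05 there were 6 genes (12.2%), against 6.73% of probe sets, and groups did not overlap for 7 genes (14.3%), against 9.91%. Oxidation genes held 3 of the 6: ACADS, ACAD10 and ACOX2, all higher in the septum. ACADS read 6.84, 6.82 and 6.62 in the paced septum and 6.42, 6.49 and 6.33 in the paced free wall, with no overlap, a difference of 0.35 (SE 0.11, limma adjusted p 0.577). ACAD10 differed by 0.28 (SE 0.12) and ACOX2 by 0.26 (SE 0.12), both without overlap.

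Not all dehydrogenases lay on the same side. ACADM read 10.98, 11.18 and 10.95 in the paced septum, below all values of the paced free wall, which were 11.28, 11.20 and 11.21. The difference was -0.19 (SE 0.12). Over all 49 genes 23 were above 0, against 51.4% of probe sets. The 12 oxidation genes split into 6 above and 6 below 0 in paced pigs, with a median of 0.06, and synthesis and storage into 5 above and 6 below, with a median of -0.06. The median of all probe sets was 0.007.

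ACSS3, a mitochondrial synthetase that prefers propionate, read 9.45, 9.70 and 9.58 in the paced septum and 9.25, 9.22 and 8.97 in the paced free wall. The groups did not overlap, and the difference was 0.43 (SE 0.17, limma adjusted p 0.691). PLIN2 was at -0.64 (SE 0.23, limma adjusted p 0.654), with an overlap through septum array 2. ACSL6, a synthetase best known from brain, was at -0.44 (SE 0.19) and dim on all arrays (mean 3.31).

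In control pigs 0 of 49 genes passed, as did 0% of probe sets by limma, and 1 gene lay at an unadjusted p under 0.05 (2.04%, against 3.67% of probe sets). That gene was ACSS2, the cytosolic acetyl-CoA synthetase. It read 8.07, 8.25 and 8.22 in the control septum and 7.79, 7.98 and 7.91 in the control free wall, a difference of 0.29 (SE 0.13, limma adjusted p 0.997) without overlap. Groups did not overlap for 4 genes (8.16%), against 13.1% of probe sets. HADH was one of them, at 10.61, 10.73 and 10.78 in the septum and 10.54, 10.53 and 10.60 in the free wall, a difference of 0.15 (SE 0.13). In all, 30 genes were above 0, against 52.3% of probe sets. Oxidation genes had a median of 0.06, with 9 above and 3 below 0, and synthesis and storage genes a median of 0.04. With the array number as a block, 0 genes passed as well and 2 were at an unadjusted p under 0.05.

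**Figure D5:**
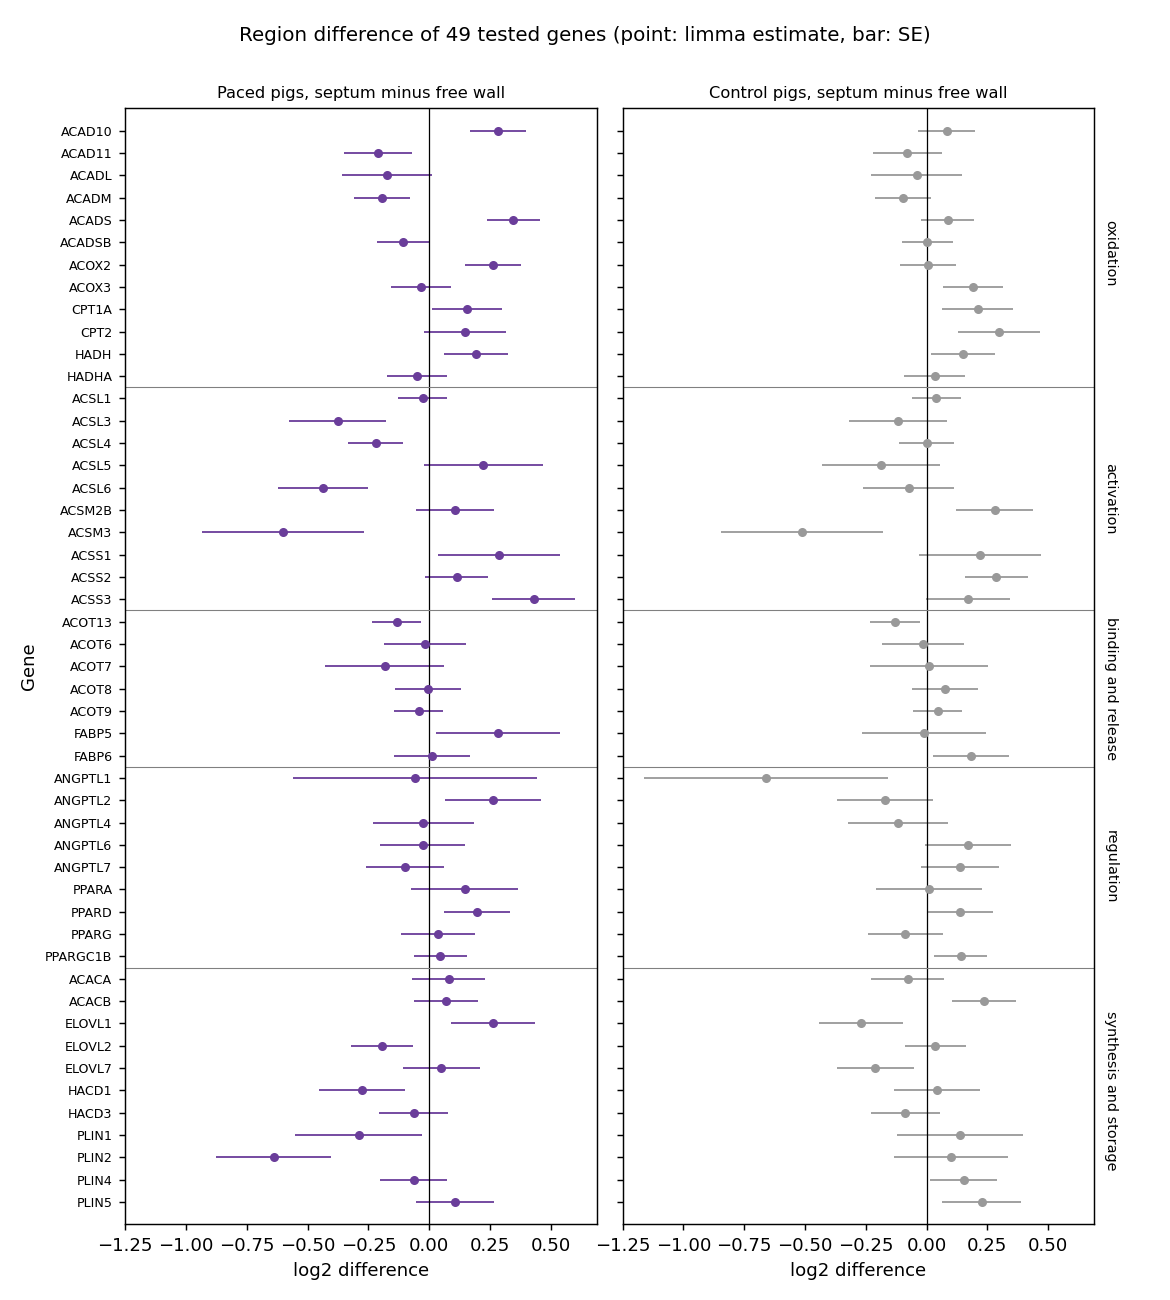
Log2 difference between septum and free wall (horizontal axis, point with SE bar from limma) for the 49 tested genes, in paced pigs (left panel) and control pigs (right panel), with lines between the roles. ACADS lies at 0.35 and PLIN2 at -0.64 in paced pigs, and at 0.09 and 0.10 in control pigs.

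Over both treatments together, 0 of 49 genes passed (0.00968% of probe sets passed). At an unadjusted p under 0.05 there were 4 genes (8.16%), against 7.83% of probe sets, a share close to the background. Groups overlapped for every gene (0 of 49 without overlap, against 0.668% of probe sets), and 27 genes were above 0, against 53.3%. ACADS was at 0.22 (SE 0.08, limma adjusted p 0.518), ACSS3 at 0.30 (SE 0.12) and ACAD10 at 0.18 (SE 0.08). ACSM3, a medium-chain synthetase, was at -0.56 (SE 0.24) and at -0.32 without septum control array 3, where it read 2.87. Oxidation genes had a median of 0.11 and synthesis and storage genes a median of -0.08, against 0.01 for all probe sets.

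Whether pacing acted differently in septum and free wall was tested as the difference between both pacing effects. No gene passed (0 of 49, and 0% of probe sets, by limma), and 1 gene lay at an unadjusted p under 0.05 (2.04%, against 2.75% of probe sets). Above 0 were 18 genes, against 51.3% of probe sets. The 1 gene was PLIN2, at -0.74 (SE 0.33, limma adjusted p 0.999), with a 95% interval from -1.47 to -0.01. It was at -0.54 without free wall paced array 1 and at -0.97 without septum paced array 2. PLIN1, PLIN4 and PLIN5 stood at -0.43 (SE 0.37), -0.22 (SE 0.20) and -0.12 (SE 0.23). ELOVL1 was at 0.53 (SE 0.24). Among the regulators PPARA was at 0.14 (SE 0.31), and among oxidation genes ACADS was at 0.26 (SE 0.15).

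FABP5, a binding protein of endothelium and fat, lay between 9.56 and 9.84 in the paced septum and between 9.22 and 9.81 in the control septum, a difference of 0.13 (SE 0.26). In the free wall it read 9.64, 8.84 and 9.70 paced and 9.08, 9.78 and 9.80 control. ACOT13, a mitochondrial thioesterase that releases free fatty acids from coenzyme A, differed by -0.10 (SE 0.10) with pacing in each region. None of the 7 tested genes of binding and release had an unadjusted p under 0.05 in any of the 7 comparisons (0 in each).

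For 3 genes a second probe set was measured. The second probe set of ACAD11 differed by -0.01 (SE 0.10) with pacing in the free wall, where the first gave 0.15 (SE 0.14). For CPT1A the second gave 0.06 (SE 0.19) and the first 0.08 in the free wall, and in the septum -0.15 (SE 0.19) and 0.02 (SE 0.15). For PPARD they gave 0.20 (SE 0.14) and 0.19 (SE 0.14) in the septum.

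Other genes of the pathway were taken from 5 lists, of uptake, oxidation, synthesis and storage, lipolysis, and regulators with their targets, with 64 genes tested. None passed in any of the 7 comparisons (0 called by limma). At an unadjusted p under 0.05 there were 4 of the 64 in the free wall with pacing (6.25%, against 4.56% of all probe sets) and 4 in the septum (6.25%, against 4.65%), shares close to the background. Of the 17 further oxidation genes, 4 were above 0 in the paced free wall (median -0.10), against 49.9% of all probe sets, and 7 in the paced septum (median -0.06), against 49.1%. The 3 at an unadjusted p under 0.05 in the free wall, singled out after their values were seen, were AMACR at -0.36 (SE 0.13), ACAA1 at -0.37 (SE 0.17) and DECR2 at -0.26 (SE 0.12). AMACR is a racemase of branched chains, ACAA1 a thiolase and DECR2 a reductase of unsaturated chains. In the septum AMACR was at -0.29 (SE 0.13) and DECR2 at -0.25 (SE 0.12). ACAA1 read 4.95, 4.66 and 4.73 in the paced septum and 4.63, 4.72 and 4.94 in the control septum, and those groups overlapped.

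In the other lists, synthesis and storage held 9 genes above and 9 below 0 in the paced free wall among 19 tested. TECR, the reductase that follows the HACD step of elongation, was the 1 gene of that list at an unadjusted p under 0.05 there, at -0.45 (SE 0.19), and it too was singled out after its values were seen. In the septum the list held 9 genes above and 8 below 0, and the 2 at an unadjusted p under 0.05 were both higher with pacing. They were the desaturase FADS1 at 0.39 (SE 0.15) and its relative FADS3 at 0.46 (SE 0.19), singled out in the same way. Over both regions 6 of the 64 genes were at an unadjusted p under 0.05 (9.4%, against 5.55% of all probe sets). Lower with pacing were TECR at -0.36 (SE 0.11), AMACR at -0.325 (SE 0.12) and DECR2 at -0.26 (SE 0.08). Higher were FADS3 at 0.28 (SE 0.11), OXCT1 of the oxidation list at 0.205 (SE 0.09) and LIPE of the lipolysis list at 0.22 (SE 0.09). Between the regions over both treatments, 49 of the 64 genes were above 0 in the septum (median 0.08), against 53.3% of all probe sets, and 7 were at an unadjusted p under 0.05 (10.9%, against 7.83%). UCP2, a carrier of the inner mitochondrial membrane, was at 0.37 (SE 0.11, limma adjusted p 0.451) and dim (mean 3.74). It was the only gene of these lists at an unadjusted p under 0.01. The uptake list held 4 of the 7: GOT2 at 0.16 (SE 0.06), LMF1 at 0.24 (SE 0.10), LPL at 0.205 (SE 0.09) and SLC27A3 at 0.23 (SE 0.10). They too were singled out after their values were seen, and 3 of the 9 uptake genes tested were below 0.

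Markers of other cell types were read beside these values. The 7 adipocyte markers measured, 6 of them tested, summed to 7.67, 7.86 and 7.67 on the log2 scale in the paced free wall. In the control free wall they summed to 7.98, 7.66 and 7.60. In the septum the sums were 7.76, 7.72 and 7.79 paced and 7.90, 7.87 and 7.68 control, so the groups overlapped in both regions. LEP was under the filter on low signal but is part of these sums. Fibroblast markers were low in both control arrays numbered 1, with sums of 11.54 in the free wall and 11.49 in the septum. Septum control array 3 was nearly as low, at 11.60, and the other arrays lay between 12.14 and 12.52. Both control arrays numbered 1 held the highest ACSS1 and PPARA values of their regions. Septum control array 3 did not, with ACSS1 at 7.23, the lowest of the control septum, and PPARA at 8.34. With pacing, all 8 fibroblast markers tested were above 0 in the septum (median 0.28), against 49.1% of all probe sets. All 8 were above 0 over both regions (median 0.24, against 48.9%), as were 6 of 8 in the free wall (median 0.16, against 49.9%). Their sums were 12.22, 12.14 and 12.14 in the paced septum and 11.49, 12.22 and 11.60 in the control septum, overlapping through control array 2. The free wall sums overlapped too, at 12.38, 12.23 and 12.52 paced and 11.54, 12.36 and 12.21 control.

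Macrophage markers, 9 tested, summed to 8.76, 8.26 and 8.46 in the paced free wall and to 8.89, 8.91 and 8.75 in the control free wall. The groups overlapped only narrowly, through paced array 1. Of the 9 markers 8 were below 0 and 1 above (median -0.32), against 49.9% of all probe sets above 0. At an unadjusted p under 0.05 there were 3, against 4.56% of probe sets. In the septum the sums were 8.76, 8.83 and 8.63 paced and 8.95, 8.72 and 8.45 control. There 5 of the 9 markers were below 0 and 4 above (median -0.03), against 49.1% of probe sets above 0. In the difference of pacing effects, where PLIN2 had the smallest p of the members, all 9 macrophage markers were above 0 (median 0.25). Endothelial markers were above 0 there in 6 of 7 (median 0.16), smooth muscle in 3 of 4 and fibroblast in 5 of 8. Adipocyte markers were above 0 in 1 of 6 (median -0.14), skeletal muscle in 1 of 5 (median -0.25), cardiomyocyte in 4 of 10 and blood in 1 of 2. The share of all probe sets above 0 there was 51.3%. Endothelial markers, 7 tested, were all higher in the septum than in the free wall of paced pigs (median 0.19). Macrophage markers were above 0 there in 8 of 9 (median 0.22), blood in 2 of 2 and smooth muscle in 3 of 4. Cardiomyocyte markers were above 0 in 5 of 10, fibroblast in 3 of 8, adipocyte in 2 of 6 and skeletal muscle in 1 of 5. In that comparison ACADS, ACAD10, ACOX2 and ACSS3 were higher without overlap, and ACADM, ACSL3 and ACSM3 were lower without overlap. Of all probe sets 51.4% were above 0. Of the endothelial markers 2 were at an unadjusted p under 0.05, against 6.73% of probe sets. Their sums were 9.82, 9.42 and 9.60 in the paced septum and 9.47, 9.05 and 9.74 in the paced free wall, which overlapped. Smooth muscle markers were above 0 with pacing in 4 of 4 in the free wall (median 0.16) and 3 of 4 in the septum (median 0.35), and cardiomyocyte markers in 7 of 10 (median 0.07) and 5 of 10 (median -0.01). Skeletal muscle markers were above 0 in 2 of 5 and 1 of 5, and the 2 blood markers tested in 1 and 2. The share of all probe sets above 0 with pacing was 49.9% in the free wall and 49.1% in the septum. No marker of these lists passed the limma threshold in any comparison (0 called). The part of these markers in the members' differences was not tested.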

How the data were processed

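Biotin-labelled total RNA was hybridised to Affymetrix arrays. The deposited log2 signals are the authors' RMA values (Affymetrix Expression Console 1.4), per the submitters' processing notes, and the annotation's build is not given in the sources used here. Of 27558 probe sets, 13332 had 1 gene, 348 several and 13878 none. PPARD was also listed under a synonym and counted as 1 gene.

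Groups came from the labels. The lowest 25% of probe sets by mean were left out. The other 20666 were modelled by limma 3.58.1 (R 4.3.3), giving each of the 4 groups its own mean (8 residual and 3.68 prior degrees of freedom), or the averages by number for pacing over both regions (4 residual and 3.82 prior). A call needed a two-sided Benjamini-Hochberg adjusted p under 0.05 over all probe sets tested. Intervals are 95% limma intervals of single differences. The code was tested on simulated data, and figures were drawn with matplotlib 3.10.9.

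The members, roles, lists and tests were chosen with earlier results of these data known. The rule named 31 fixed members (those measured), up to 8 members per comparison at an unadjusted p under 0.05, and other pathway genes at an unadjusted p under 0.01. Genes named because groups did not overlap, for a small estimate, for their range or for a second probe set stand outside it and were chosen after their values were seen. In control pigs, deviations of same-numbered septum and free wall arrays correlated at 0.32, 0.25 and 0.24. The number was therefore used to average or block them, though the labels do not say that they share an animal. In paced pigs the values were 0.09, -0.17 and -0.18.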

Additional observations from a re-analysis of the deposited data

How the results depend on the processing

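The alternatives were no filter, the lowest 50% left out, arrays centred on their medians, array weights, trend and robust, the replicate block, a fit of only the groups compared, arrays not averaged, other gene choices, and leaving out each array. None brought a member past the threshold: 0 were called in every comparison and setting. The 29 member differences at an unadjusted p under 0.05 kept their sign in all 396 alternatives. Their smallest limma adjusted p was 0.195. They were picked by the unadjusted p from the same values, so a kept sign was likely beforehand and adds no support. Calls over all probe sets were few and moved. For pacing in the free wall there were 2 with array weights, 0 with the replicate block and 0 with only the groups compared. For pacing in the septum there was 1 with the replicate block and 1 with only the groups compared, and for pacing over both regions 4 with arrays not averaged. Between regions there was 1 in paced pigs with the replicate block, and over both treatments 1 with the lowest 50% left out, 4 with array weights, 4 with trend and robust and 1 with the replicate block. The block changed no member call. With the lowest 50% left out, the synthesis and storage median was -0.175 for pacing in the septum and -0.0008 between regions over both treatments. The oxidation median for pacing in the free wall was -0.0067 without ACADSB, so its sign is not settled. Leaving out 1 array each gave 0 to 1 probe sets for pacing in the free wall, 1 to 4 in the septum (4 without paced array 2) and 0 to 1 over both regions. Between regions it gave 0 to 7 in paced pigs (7 without septum array 2) and 0 to 3 over both treatments. The oxidation median ranged from -0.0208 to 0.0742 for pacing in the free wall, from -0.0758 to 0.0517 in the septum, from -0.0525 to 0.0283 over both regions and from -0.1725 to -0.0133 for the difference between regions. The synthesis and storage median ranged from -0.155 to -0.03 for pacing in the free wall and from -0.1483 to -0.015 in the septum. For pacing over both regions it ranged from -0.13 to -0.0925. Between regions it ranged from -0.0633 to 0.005 in paced pigs and from -0.0283 to 0.175 in control pigs. It ranged from -0.0658 to -0.0275 between regions over both treatments, and from -0.27 to -0.1183 for the difference between regions. With all arrays this median was -0.135 for pacing over both regions and -0.075 between regions over both treatments. Both values lay outside their ranges, so every fit without an array gave a smaller size. The causes were not tested. With 3 arrays a group the intervals are wide, and a member that was not called may still differ by any amount within its interval.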
